A study of Homo sapiens with 4 samples.

Results

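Glutathione peroxidases and selenoproteins were followed in the human breast cancer cell line MDA-MB-231 after long-term passage in cadmium. The set held 10 genes out of 61541 in the count table: 5 glutathione peroxidases (GPX1, GPX2, GPX3, GPX4 and GPX8), the selenium carrier gene SELENOP, the selenoprotein genes SELENOW, SELENOM and SELENOS, and SEPHS2, which acts in selenocysteine synthesis. They were chosen as genes of these families by symbol, and each symbol matched 1 Ensembl gene. RNA was sequenced from 2 samples of cells made resistant by repeated passage in cadmium sulfate, raised to 10 µM. The 2 control samples were untreated cells of the same line, whose passage history is not given. All libraries came from 1 cell line, so they stand for that line only, and whether the replicates were selected separately is not given in the sources used here. Control libraries are called control 2 and control 3 after the numbers they carry in the table, and the others cadmium 1 and cadmium 2.

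Glutathione peroxidases reduce hydrogen peroxide and organic hydroperoxides to water and alcohols, using glutathione as the electron donor. Most carry selenocysteine in the active site. This amino acid is written into the protein at a UGA codon, which would otherwise stop translation, with the help of a hairpin in the messenger RNA called the SECIS element and a dedicated elongation factor. Selenium supply therefore limits how much of these proteins a cell can make. Transcripts whose UGA lies far enough before the last exon junction can be recognised as carrying an early stop.

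The stretch around the selenocysteine codon is shown for the members because it separates the genes that need selenium from the 1 that does not. The letters are coding sequence of the main transcript in GENCODE (GRCh38, the same assembly as hg38), 5′ to 3′ on the gene's strand. Capitals mark the selenocysteine codon TGA or, in GPX8, the codon aligned with that of GPX4. The SELENOW stretch is joined across an intron, and that of SELENOS ends with its coding sequence.
GPX1: gtggcgtccctcTGAggcaccacggtc
GPX2: gtggcttcgctcTGAggcacaaccacc
GPX3: gtggccagctacTGAggcctgacgggc
GPX4: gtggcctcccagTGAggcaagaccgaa
GPX8: gtggccagtgacTGCcaactcacagac
SELENOW: tattgtggcgctTGAggctacaagtcc
SELENOM: acctgcgggggaTGAcagctgaaccgc
SELENOS: tcatctggcggaTGAggc
SEPHS2: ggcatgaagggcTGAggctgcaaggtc
An in-frame TGA was found in 9 of the 10 genes. GPX8 holds the cysteine codon TGC at the aligned place (chr5:55161024-55161026, plus strand), and no selenocysteine codon. In GPX4 the TGA is codon 73 (chr19:1105403-1105405, plus strand), and in GPX1 it is codon 49 (chr3:49358132-49358134, minus strand). In SELENOW it comes early, as codon 13 of 87 (chr19:47780732-47780734, plus strand). SELENOM has it at codon 48 of 145 (chr22:31105951-31105953, minus strand). SELENOS is the opposite case, with the TGA at codon 188 of 189 (chr15:101272777-101272779, minus strand), and in SEPHS2 it is codon 60 (chr16:30445548-30445550, minus strand). SELENOP holds 10 such codons, the first at codon 59 (chr5:42808177-42808179, minus strand). The encoded glutathione peroxidases differ widely outside this site. GPX1 and GPX2 share 67.4% of aligned residues, GPX1 and GPX4 share 40.6%, and GPX1 and the cysteine enzyme GPX8 share 35.1%.

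No member passed the test between cadmium and control cells. DESeq2 called 225 of 19816 genes at an adjusted p-value below 0.1, or 1.14%, and 0 of the 9 members with an adjusted p-value were among them. By direction, 0.601% of genes tested were called higher and 0.535% lower. At an unadjusted p-value below 0.05 there were 2 members, SELENOW and SELENOM, both lower in cadmium, against 6.92% of all genes tested. The quasi-likelihood test of edgeR and limma-voom each called 0 members and had 3 at an unadjusted p-value below 0.05, with GPX4 as the third, against 7.83% and 7.40% of all genes. The groups did not overlap for 6 of the 9 members, against 40.3% of genes tested. Cadmium libraries were below both controls for GPX1, GPX4, SELENOW and SELENOM, as for 19.9% of genes tested, and above both for GPX3 and SEPHS2, as for 20.3%. An exact permutation test of 2 against 2 libraries cannot give a two-sided p-value under 0.333, so none is reported for single genes. In bulk RNA a smaller share of cells with a transcript and less of it per cell cannot be told apart.

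The libraries set how these values can be read. Totals ran from 51934729 to 61916007 reads assigned to genes. Over genes averaging 100 or more normalized counts, the log2 ratio of 1 library to the other had a robust SD of 0.56 within the controls and 0.16 within the cadmium pair, so most of the spread came from control 2 against control 3. Markers looked for at a high level in this line were VIM, at 135 to 168 RPKM (reads scaled by gene length and library total), KRT18, at 129 to 151 RPKM, and CD44, at 37.8 to 47.1 RPKM. Of those looked for at a low level, ESR1 and PGR had at most 20 and 30 reads, while ERBB2 stood at 8.10 to 11.2 RPKM. The epithelial markers split the controls in opposite ways, with EPCAM at 2410 normalized counts in control 2 and 662 in control 3, and CDH1 at 107 and 615. Of 5 markers of other cell types, DCN and ALB had at most 4 and 7 reads, COL1A1 had 529 to 875, PECAM1 had 169 in control 2 and 649 to 792 in the others, and PTPRC had 2 in control 2, 135 in control 3 and 37 and 43 in the cadmium libraries. These 5 markers summed to 1.30 and 4.16 RPKM in the controls and to 2.88 and 2.99 RPKM in the cadmium libraries, and their part in the results was not tested. As a check on the labels, MT2A, a metal-binding metallothionein, was upregulated 4.16-fold at a DESeq2 adjusted p-value of 9.41e-06, and HMOX1, heme oxygenase, 5.58-fold at 1.58e-08. Neither was called by edgeR or limma-voom, where MT2A had adjusted p-values of 0.587 and 0.656, and MT2A was not called without cadmium 1 (0.111) or cadmium 2 (0.294).

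**Figure D1:**
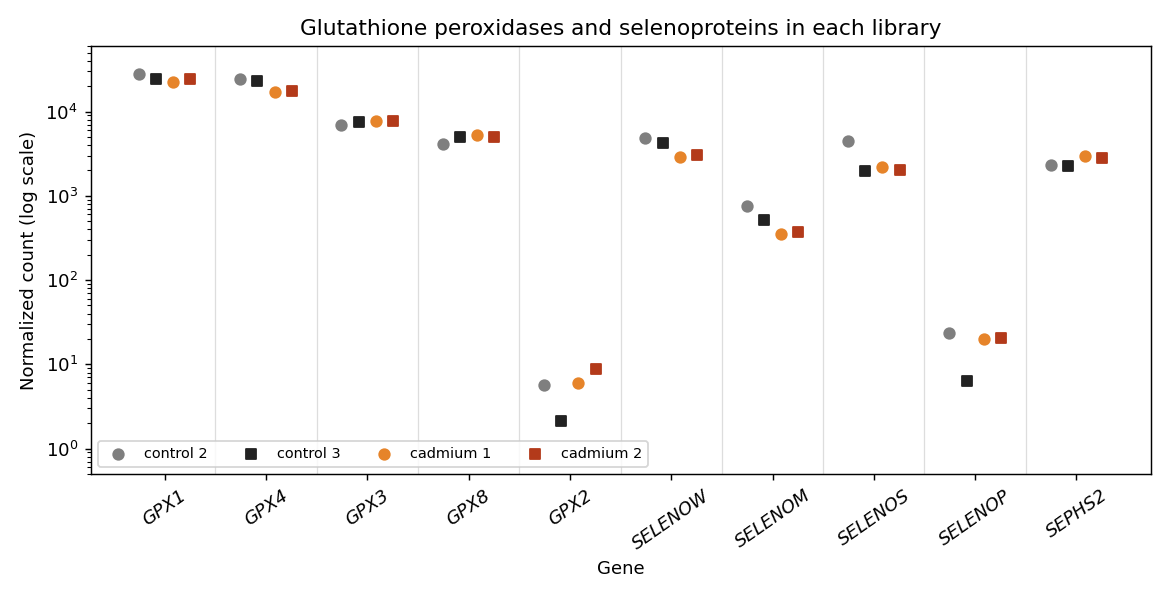
Normalized read counts (vertical axis, logarithmic) of the 10 genes in each library, with grey and black points for the control libraries and orange and red points for the cadmium libraries. GPX4, SELENOW and SELENOM sit lower in each cadmium library than in either control, while SELENOS is set apart by control 2 alone.

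GPX4 is the peroxidase that reduces lipid hydroperoxides within membranes and protects cells from ferroptosis, a death driven by lipid peroxidation. Its gene lies on chromosome 19 (ENSG00000167468, 1103994 to 1106791, hg38, plus strand). It had 24583 and 23228 normalized counts in control 2 and control 3, and 17248 and 17691 in cadmium 1 and cadmium 2. The controls thus lay close together and the cadmium libraries closer still, with no overlap between groups. The means were 23905 ± 958 and 17469 ± 313 (SD, n = 2 each), so the log2 fold change was -0.45 (SE 0.24), with a 95% interval from -0.92 to 0.01. The DESeq2 unadjusted p-value was 0.0571 and the adjusted p-value 0.741. The change was between -0.50 and -0.41 when any 1 library was left out. Of the 40 expressed genes nearest to GPX4, 7 were at least as low, and the median log2 fold change of the 40 was -0.09. GPX4 would have been called without control 2 (adjusted p-value 0.00400) or without control 3 (1.34e-04), but these fits take their spread from the close cadmium pair alone and called 14.8% and 31.2% of all genes tested.

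GPX1, the abundant cytosolic enzyme that removes hydrogen peroxide, had the highest level of the set (ENSG00000233276, chromosome 3, 49357176 to 49358353, minus strand). Its normalized counts were 27837 and 24593 in the controls and 22174 and 24496 in the cadmium libraries. The groups just failed to overlap, and cadmium 2 and control 3 were closer to each other than the controls were. The log2 fold change was -0.17 (SE 0.25), with a 95% interval from -0.66 to 0.32, and the DESeq2 adjusted p-value was 1.00. Within a library, GPX4 had 0.883 and 0.944 reads for each GPX1 read in the controls and 0.778 and 0.722 in the cadmium libraries. A scaling factor shared by all genes of a library cannot alter this ratio, but a gene-length correction can.

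GPX3, the secreted plasma enzyme, lies on chromosome 5 (ENSG00000211445, 151020591 to 151028988, plus strand). Its normalized counts were 6837 and 7438 in the controls and 7784 and 7790 in the cadmium libraries. The groups did not overlap, yet the log2 fold change was only 0.13 (SE 0.24), and the DESeq2 adjusted p-value was 1.00. GPX8, the cysteine enzyme of the endoplasmic reticulum membrane, is on the same chromosome (ENSG00000164294, 55160167 to 55167297, plus strand). It had 4104 and 4977 normalized counts in the controls and 5285 and 4931 in the cadmium libraries, and the groups overlapped. Its log2 fold change was 0.17 with a 95% interval from -0.34 to 0.68. GPX2, the peroxidase of the gut epithelium, was near the limit of detection on chromosome 14 (ENSG00000176153, 64939152 to 64942746, minus strand), with 6 and 2 reads in the controls and 6 and 9 in the cadmium libraries. A library without a read could still hide 3 counts, or 6 where both mates of a pair were counted. The log2 fold change of GPX2 had a 95% interval from -2.20 to 4.04, DESeq2 gave it no adjusted p-value, and a difference was not detectable at this depth.

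SELENOW, a small thioredoxin-fold protein that is among the first selenoproteins lost when selenium is scarce, lies on chromosome 19 (ENSG00000178980, 47778677 to 47784686, plus strand). Its normalized counts were 4908 and 4277 in the controls and 2882 and 3077 in the cadmium libraries. The lower control was still well above the higher cadmium library. Means of 4592 ± 447 and 2980 ± 138 (SD, n = 2 each) put the log2 fold change at -0.62 (SE 0.25), with a 95% interval from -1.12 to -0.12. The DESeq2 unadjusted p-value was 0.0143, and the adjusted p-value was 0.420. The log2 fold change was -0.52 without control 2, -0.73 without control 3, -0.58 without cadmium 1 and -0.68 without cadmium 2. None of the 40 expressed genes nearest to SELENOW was as low, and their median log2 fold change was -0.02.

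SELENOM, a redox protein of the endoplasmic reticulum lumen, had the lowest log2 fold change of the 10 genes (ENSG00000198832, chromosome 22, 31104772 to 31120069, minus strand). It had 765 and 520 normalized counts in the controls and 355 and 369 in the cadmium libraries. The groups did not overlap, although the controls differed from each other by more than control 3 differed from the cadmium libraries. The log2 fold change was -0.83 (SE 0.34), and its 95% interval ended at -0.16. The DESeq2 unadjusted p-value was 0.0157 and the adjusted p-value 0.442. Control 2 carried part of that size, since the value was -0.52 without it, with an adjusted p-value of 0.291, and -1.09 without control 3, with 2.73e-04. None of the 40 expressed neighbours of SELENOM was as low, and their median was 0.01.

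SELENOS, which helps remove misfolded proteins from the endoplasmic reticulum, shows what 1 control could do (ENSG00000131871, chromosome 15, 101270817 to 101277500, minus strand). Its normalized counts were 4496 and 1970 in the controls and 2179 and 1996 in the cadmium libraries. Control 2 stood alone, and the other 3 libraries lay within about the same level. The log2 fold change was -0.63 (SE 0.42), at an adjusted p-value in DESeq2 of 0.904. It turned to 0.082 without control 2 and was -1.12 without control 3. The 40 expressed genes around SELENOS had a median log2 ratio of control 3 over control 2 of -0.65 and a median log2 fold change of -0.39, so the controls also differed across the neighbourhood. Set against those neighbours, the log2 fold change of SELENOS was -0.24.

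SEPHS2 makes selenophosphate, the selenium donor for every selenocysteine, and is itself a selenoprotein (ENSG00000179918, chromosome 16, 30443631 to 30445874, minus strand). Its normalized counts were 2332 and 2271 in the controls and 2931 and 2816 in the cadmium libraries. Both pairs were tight and the cadmium libraries lay above the controls. Means of 2301 ± 42.6 and 2873 ± 81.4 (SD, n = 2 each) put the log2 fold change at 0.32 (SE 0.25), with a 95% interval from -0.16 to 0.80 and an adjusted p-value in DESeq2 of 0.969. The log2 fold change stayed between 0.29 and 0.35 when any 1 library was left out, and no such fit called it, with adjusted p-values of 0.150 or more.

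SELENOP, the secreted protein that carries selenium between tissues, could not be measured well here (ENSG00000250722, chromosome 5, 42799880 to 42887392, minus strand). It had 25 and 6 reads in the controls and 20 and 21 in the cadmium libraries. Of the 2056 bases of its main transcript, 75.6% lie in exons of genes on the opposite strand, CCDC152 and an unnamed gene. Reads were counted without strand and reads that overlap more than 1 gene were dropped, so most reads of that transcript would be lost, and a low count does not show a low level. CCDC152 had 2 reads in control 2 and was listed at 0 in the other libraries. The sign of the SELENOP log2 fold change of 0.43 (SE 1.05) turned to -0.23 without control 3. Exons of the other 9 genes share no base with exons of another gene. Processed copies took few reads. GPX1P1 had 0.350% to 0.421% as many reads as GPX1, and GPX1P2, SELENOWP1 and SEPHS2P1 were listed at 0.

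**Figure D2:**
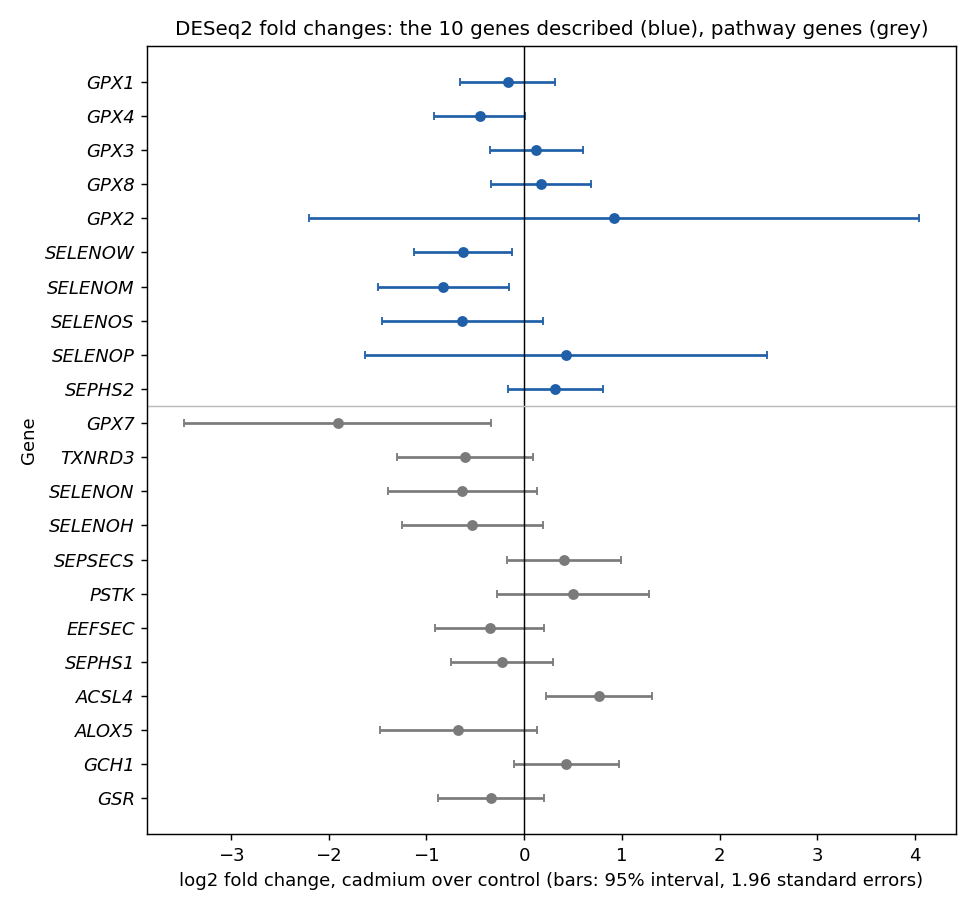
DESeq2 log2 fold changes of cadmium over control (horizontal axis), with bars for the 95% interval, for the 10 genes in blue and for 12 pathway genes in grey. The intervals of SELENOW, SELENOM, GPX7 and ACSL4 leave out 0, those of GPX2 and SELENOP are the widest shown, and none of these genes passed the adjusted test.

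Levels of different genes were compared per length, as RPKM, in which each count is divided by the length of all exons of the gene and by the library total. GPX1 was first, at 343 to 403 RPKM over the 4 libraries, and GPX4 second, at 161 to 216 RPKM. GPX3 followed at 38.8 to 47.2 RPKM. GPX8, at 17.3 to 23.8 RPKM, and SEPHS2, at 17.7 to 23.8 RPKM, could not be separated by their ranges. SELENOW, at 10.2 to 16.2 RPKM, and SELENOS, at 9.49 to 20.4 RPKM, also overlapped, and the highest SELENOS value reached into the ranges of GPX8 and SEPHS2. SELENOM lay below them at 2.03 to 4.09 RPKM, and GPX2 and SELENOP had at most 0.119 and 0.0734 RPKM. GPX1 and GPX4 together made up 87.5% to 91.1% of the summed RPKM of the 8 glutathione peroxidase genes, and GPX4 alone 31.7% and 32.6% in the controls and 28.0% and 26.9% in the cadmium libraries. The order depends on the length used. All annotated exons of SELENOW span 5156 bases, against 758 for its main transcript. Per kilobase of main transcript SELENOW, at 111 and 102, was above GPX3, at 72.8 and 84.0, in control 2 and control 3. In cadmium 1 and cadmium 2 SELENOW, at 69.3 and 72.6, was below GPX3, at 88.6 and 87.0. The range of GPX4 over the libraries, 370 to 494, overlapped that of GPX1, 450 to 529. Within each library GPX1 was still the higher, though only by 495 against 494 in control 3.

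Each library was left out in turn to see how far a single one set these values. For GPX4, SELENOW, SELENOM, SELENOS, GPX1 and GPX8, in that order, the log2 fold changes without control 2 were -0.41, -0.52, -0.52, 0.08, -0.08 and 0.04. Without control 3 they were -0.50, -0.73, -1.09, -1.12, -0.27 and 0.30. Leaving out cadmium 1 gave -0.44, -0.58, -0.80, -0.70, -0.10 and 0.11, and leaving out cadmium 2 gave -0.47, -0.68, -0.86, -0.57, -0.24 and 0.22.

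**Figure D3:**
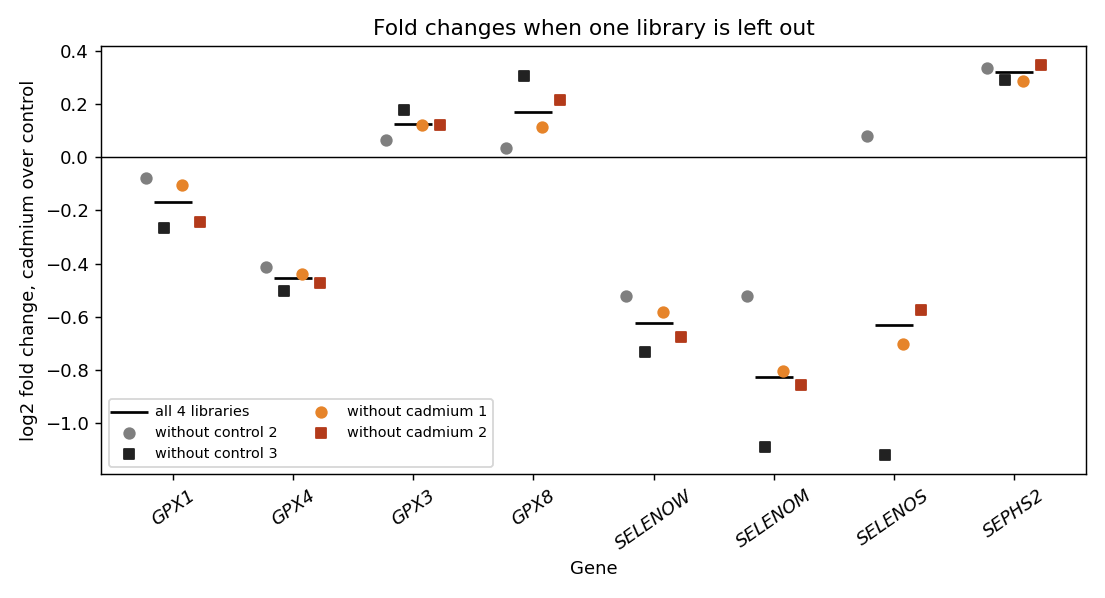
Log2 fold change of cadmium over control (vertical axis) for 8 of the 10 genes, with a black bar for all 4 libraries and a point for each fit with 1 library left out. Of the genes drawn only SELENOS changes sign, moving from -1.12 to 0.082 depending on which control is left out. GPX1, GPX3 and GPX8 shrink to -0.08, 0.06 and 0.04 without control 2. GPX2 and SELENOP are not drawn because of their low counts.

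The other members of the family were examined as a list of 18 further selenoprotein and glutathione peroxidase genes. Of these, 14 averaged 10 or more normalized counts, and DESeq2 called 0 of them higher and 0 lower, with 1 at an unadjusted p-value below 0.05. There were 4 with a higher and 10 with a lower value, and the median log2 fold change was -0.26, against -0.03 over 18871 genes at that level. That median was 0.09 without control 2 and -0.44 without control 3. GPX7, the second cysteine peroxidase of the endoplasmic reticulum, had 414 normalized counts in control 2 against 54.2 in control 3 and 60.7 and 64.2 in the cadmium libraries. Its log2 fold change of -1.91 (adjusted p-value in DESeq2 0.463) was 0.20 without control 2. SELENON, a calcium-linked protein of the endoplasmic reticulum, had the same shape, with 9716 normalized counts in control 2 and 4514 to 4795 in the others, and its log2 fold change of -0.63 was -0.020 without control 2. In SELENOH, a nuclear selenoprotein, control 2 also stood apart, and the log2 fold change was -0.53 with all libraries and -0.089 without it. For GPX7, SELENON and SELENOH, the 40 nearest expressed genes had median log2 ratios of control 3 over control 2 of -0.63, -0.60 and -0.46. Their median log2 fold changes were -0.32, -0.23 and -0.14, and 0, 7 and 3 of the 40 were at least as low as the gene itself. The controls thus also differed across these neighbourhoods. TXNRD3, a thioredoxin reductase best known from testis, was lower in both cadmium libraries, at 357 and 349 normalized counts against 648 and 423, with a log2 fold change of -0.60 and an adjusted p-value in DESeq2 of 0.835. Its log2 fold change was -0.26 without control 2. GPX5, GPX6, DIO3 and SELENOV were listed at 0 in every library.

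Genes for selenium uptake and for making and inserting selenocysteine formed a list of 11, of which 10 averaged 10 or more normalized counts. DESeq2 called 0 higher and 0 lower, 0 had an unadjusted p-value below 0.05, and edgeR and limma-voom called 0 genes of the whole table. The median log2 fold change was -0.08, with 4 genes higher and 6 lower. SEPSECS, which completes selenocysteine on its transfer RNA, had 377 and 396 normalized counts in the controls and 505 and 521 in the cadmium libraries, with no overlap. Its log2 fold change was 0.41 (SE 0.30), at an adjusted p-value in DESeq2 of 0.944. PSTK, the kinase of the step before, had a log2 fold change of 0.50, but its controls differed, at 579 and 304 normalized counts against 627 and 623, and the value was 1.04 without control 2 and 0.099 without control 3. EEFSEC, the elongation factor for selenocysteine, had 765 and 895 normalized counts in the controls and 640 and 661 in the cadmium libraries, which gave a log2 fold change of -0.35 (SE 0.28). SEPHS1, the paralog of SEPHS2 without selenocysteine, had a log2 fold change of -0.23 (95% interval from -0.75 to 0.30), and -0.062 without control 2.

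The list around lipid peroxides and glutathione return held 9 genes, 8 of them averaging 10 or more normalized counts. DESeq2 called 0 higher and 0 lower, and 1 had an unadjusted p-value below 0.05. ACSL4, which loads membranes with the polyunsaturated fatty acids that GPX4 protects from peroxidation, had 7830 and 10443 normalized counts in the controls and 15498 and 15583 in the cadmium libraries. The groups did not overlap, and the log2 fold change was 0.77 (SE 0.28), at a DESeq2 unadjusted p-value of 0.00548 and an adjusted p-value of 0.268. ACSL4 lies on chromosome X, where its 40 expressed neighbours had a median log2 ratio of control 3 over control 2 of 0.91 and a median log2 fold change of 0.31, and 5 of them were at least as high as ACSL4. Without control 2 the log2 fold change of ACSL4 was 0.57. GCH1, the first enzyme of tetrahydrobiopterin synthesis, had 625 and 668 normalized counts in the controls and 852 and 892 in the cadmium libraries, which gave a log2 fold change of 0.43 at an adjusted p-value in DESeq2 of 0.894. ALOX5, a lipoxygenase, had a log2 fold change of -0.67 (-0.37 without control 2) and GSR, which returns oxidised glutathione to its reduced form, one of -0.34 (-0.19 without control 2), with DESeq2 adjusted p-values of 0.863 and 0.984.

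The place of the selenocysteine codon in the transcript was set beside these values, a grouping chosen after the values had been seen and given with no test. The TGA lies upstream of the last exon junction by 240 bases in GPX3, 342 in GPX4, 243 in SELENOW and 135 in SELENOM, and also in GPX1. In SELENOS it lies beyond that junction, and SEPHS2 has a single exon. Over all selenoprotein genes averaging 10 or more normalized counts, SELENOP left out for its overlap, 13 had the first TGA upstream of the last junction, and 11 of these had a lower and 2 a higher value in cadmium, with a median log2 fold change of -0.27. Of 18871 genes at that level, 47.0% had a higher value. The TGA of SELENOK and MSRB1, counted here as upstream, lies only 5 and 34 bases before the junction. In the other 7 there were 3 lower and 4 higher, with a median of 0.09. Without control 2 there were 9 lower and 4 higher among the 13, and 1 lower and 6 higher among the 7. Without control 3 these counts were 11 and 2, and 4 and 3. Cadmium libraries were below both controls for 6 of the 13 and 1 of the 7, against 19.9% of genes tested. They were above both for 1 in each group, against 20.3%. The 6 include GPX1, GPX4, SELENOW and SELENOM, whose values were known when the grouping was chosen. Their count is therefore no separate support for it. The medians of the 13 and the 7 were -0.09 and 0.31 without control 2, -0.48 and -0.11 without control 3, and -0.38 and 0.15 without cadmium 2. Their order turned round without cadmium 1, at -0.20 and -0.30. Each fit reuses most of the same libraries, so these values are no independent check of the order. Whether an early stop plays a part was not tested. The value of 0.09 depended on DIO2, a deiodinase gene with few reads, whose log2 fold change was 0.50 with all libraries and -0.57 without cadmium 1. With DIO1 and DIO2 left out by a minimum mean of 50 normalized counts, a limit added after seeing the data, the medians were -0.26 over 12 genes and -0.13 over 6. They were then -0.21 and -0.14 without cadmium 1, and -0.49 and -0.45 without control 3.

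**Figure D4:**
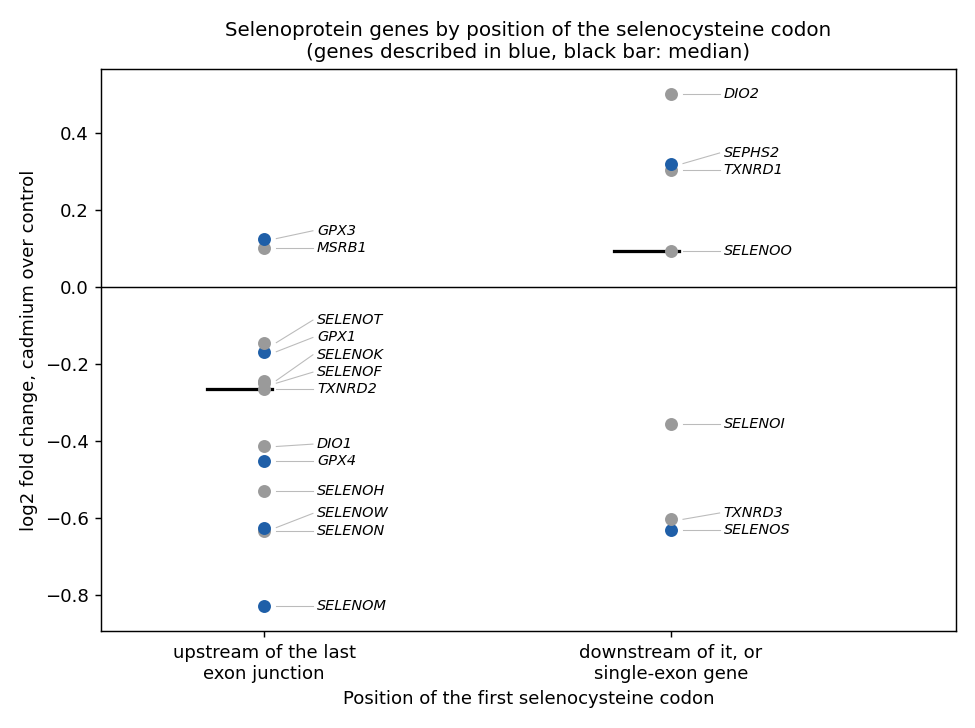
Log2 fold change of cadmium over control (vertical axis) for 20 selenoprotein genes, split by whether the first selenocysteine codon lies upstream of the last exon junction. The 13 genes of the left column reach from -0.83 to 0.13 with a median of -0.27, and the 7 of the right column from -0.63 to 0.50 with a median of 0.09, in which DIO2 is the highest point and has few reads.

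Promoters were searched because MTF-1, the factor the study followed, is known to bind metal response elements. NRF2, a factor of the oxidative stress response, binds antioxidant response elements. The study itself reported no enrichment of the MTF-1 motif of the JASPAR collection, which it doubted to be a genuine one. Its motif search set MTF-1 sites gained or lost with cadmium against sites conserved in both conditions. It placed the changes of binding mostly far from gene starts, and found conserved sites at promoters more often than changed ones. RefSeq windows of 300 bases, from 250 before to 50 after the start (GRCh38.p14), were given for 9 of the genes. SELENOM has no entry. The core of the metal response element, TGCACNC or TGCGCNC on either strand, was found for 3 of the 9 genes, GPX1, SELENOS and 1 of the 3 windows of GPX4. It occurs in 29.6% of 35116 promoter windows, a share by window and not by gene, and the 9 genes had 11 windows. The core of the antioxidant response element, TGACNNNGC on either strand, was found for 2, GPX2 and SELENOP, and occurs in 13.3% of windows. These are matches of letters only. SELENOW, which had the lowest unadjusted p-value of the set, held neither.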

How the data were processed

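RNA-seq was performed on total RNA of 2 control and 2 cadmium samples. The authors trimmed adaptors with bbduk, aligned to hg38 with hisat2 and assigned reads to genes of Ensembl annotation 105 with featureCounts 2.0.1, so the deposited table holds raw counts of reads for each gene. Default options of the header command applied: strand was ignored, reads on several genes or places were dropped, and each mate was counted. Even numbers made up 70.6% to 71.5% of the values from 1 to 20, so fragments are fewer than counts. Intervals cover counting and replicate error only.

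Control columns carry numbers 2 and 3 while the labels say 1 and 2, so they were assigned to the group only. Symbols matched 61369 of 61541 identifiers.

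Differences were tested with DESeq2 1.42.0 (R 4.3.3; group as the only term; two-sided Wald test; p-values adjusted by Benjamini-Hochberg with independent filtering; threshold 0.1) over the whole table. With no record of separate selection, p-values measure the spread between these libraries. Alternatives were edgeR 4.0.16, limma 3.58.1 (voom), other scalings and filters, halved counts, a gene-length correction and leaving out each library. The per-length levels on main transcripts and the minimum mean of 50 in the codon grouping were added after seeing the data. RPKM was computed here from the deposited counts and exon lengths. Codons came from GENCODE 44, with Biopython 1.88 under Python 3.11.15. Scripts were tested on simulated data.

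The 10 genes and the 3 pathway lists were chosen with earlier results of these data known. Named genes were the 10, genes of each list called by DESeq2, the 4 lowest unadjusted p-values per list among genes averaging 50 or more normalized counts, and MT2A, MT1X and HMOX1. MT1X was upregulated 7.29-fold (DESeq2 adjusted p-value 3.48e-13). The cell markers and DIO1, DIO2, SELENOK and MSRB1 fall outside this rule, and the last 4 were named after their values were seen.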

Additional observations from a re-analysis of the deposited data

How the results depend on the processing

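No paired analysis was possible because column numbers and label numbers of the controls differ, and the fit with a replicate block was left out. No alternative of test, scaling, filter, threshold or length called any of the 10 genes, and all 87 values from those settings kept their sign. GPX2 had no value with edgeR, limma-voom or the filter of 10 counts in 2 libraries. The 225 calls over all genes became 0 with edgeR and 0 with limma-voom, with 1506 and 1423 genes under 0.05 before adjustment. Upper-quartile scaling gave 152 higher and 88 lower genes against 119 and 106. Leaving out 1 library gave between 14 and 6189 calls over all genes and between 0 and 6 among the 10 genes: 2311 and 2 without control 2, 6189 and 6 without control 3, 17 and 0 without cadmium 1, and 14 and 0 without cadmium 2. Those fits leave 1 library in a group, which is assumed to vary like the remaining pair. Among the genes described by name under the stated rule, the log2 fold change turned sign for SELENOS (0.082 without control 2, -1.12 without control 3), GPX7 (0.20 and -2.74) and SELENOP (1.67 and -0.23), and for SEPHS1 (0.033) relative to its neighbours. Over the lists, leaving out at least 1 of the libraries turned the sign of 8 of 14 further selenoprotein genes, 5 of 10 genes of selenocysteine synthesis and 4 of 8 of lipid peroxides. Unadjusted p-values of GPX4 ran from 0.0191 (limma-voom) to 0.101 (upper-quartile scaling) over the settings with all libraries, and those of SEPHS2 from 0.0859 to 0.205.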
